A study of Homo sapiens with 16 samples.

Results

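The insulin-like growth factor (IGF) system was followed through 8 genes in human U87 glioblastoma tumours grown in mouse brain. They encode 6 IGF binding proteins (IGFBP2, IGFBP3, IGFBP4, IGFBP5, IGFBP6 and IGFBP7) and 2 receptors (IGF1R and IGF2R). The genes were taken by symbol from both deposited expression tables, 8 of 17318 genes in the first and 8 of 18168 in the second, and each symbol had 1 row in each table. The set was chosen by family, with results of these data known, and on the expression differences of IGFBP2 and IGFBP4 between the groups of the first experiment. Values of that comparison are therefore given as a description, without a test, and tests are given only for the second experiment, whose mice are separate.

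Each library came from the tumour of 1 mouse. U87, an established human glioblastoma line described in the labels as wild type, was implanted in the brains of nude mice, which lack mature T cells, and carried a luciferase reporter, as the design text states for the first experiment. The mice received exosomes of cells abbreviated as MSC, loaded with siRNA. In the first experiment these were siRNA 1 against human MYC (Myc1, n = 3) or scramble siRNA 1 (Scr1, n = 4), and in the second siRNA 2 against human MYC (Myc2, n = 5) or scramble siRNA 2 (Scr2, n = 4). Dosing in the first experiment began on day 28 with 1e9 exosomes in 100 µl every other day, into the venous sinus behind the eye. All tumours were taken when the mouse reached the criteria for euthanasia, so the time on treatment may differ between mice. The model is 1 cell line, and the controls received exosomes too.

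The IGF ligands signal through IGF1R, a receptor tyrosine kinase that activates the PI3K and AKT pathway and the MAP kinase pathway. IGF2R, the cation-independent mannose 6-phosphate receptor, takes up IGF2 for breakdown in lysosomes and carries lysosomal enzymes, and has no kinase of its own. The binding proteins are secreted, hold IGFs outside the cell and set how much ligand reaches the receptors, and proteases such as PAPPA release the ligand by cutting them. In glioma, IGFBP2 is known as a protein of high-grade tumours, IGFBP3 as a gene induced by low oxygen, and IGFBP7 as a product of tumour vessels.

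Promoter sequences were compared because the siRNAs target MYC, which with its partner MAX binds the E-box CACGTG, and because IGFBP3 is a known target of low oxygen, whose factors bind at the cores ACGTG and GCGTG. RefSeq promoters (GRCh38.p14) were matched for 7 of the 8 genes, all but IGFBP7, and the 250 bases before the start site were searched on both strands. The E-box reads the same on both strands, and each one also holds an ACGTG core on each strand. Only IGF2R held it, 3 times, while 6.34% of all 35116 promoters held at least 1 and 0.0797% (28 promoters) held 3 or more. GC content was 79.2% in the IGF2R promoter and 58% at the median of all promoters. An ACGTG or GCGTG core was present in 43.2% of all promoters, and the share with 3 or more was not computed. IGFBP3 held GCGTG 3 times, in a window of 76% GC. IGF1R, at 81.2% GC, held GCGTG 4 times and ACGTG once, and 1 of the 3 IGFBP2 start sites held 1 GCGTG. IGFBP4, IGFBP5 and IGFBP6 held none of these letters in the window. The promoters of IGF2R and IGFBP3 are shown for these matches and that of IGFBP4 because it had the largest difference in the second experiment. Capitals mark the E-boxes in IGF2R and the GCGTG cores, or their reverse complement, in IGFBP3. The windows are chr6:159968832-159969081 on the plus strand for IGF2R, chr7:45921273-45921522 on the minus strand for IGFBP3 and chr17:40443200-40443449 on the plus strand for IGFBP4.
IGF2R: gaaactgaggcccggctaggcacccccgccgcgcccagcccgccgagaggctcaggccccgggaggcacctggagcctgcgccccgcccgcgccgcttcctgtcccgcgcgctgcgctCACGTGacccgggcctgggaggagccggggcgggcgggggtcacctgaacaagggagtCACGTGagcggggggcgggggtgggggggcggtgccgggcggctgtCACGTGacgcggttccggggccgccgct
IGFBP3: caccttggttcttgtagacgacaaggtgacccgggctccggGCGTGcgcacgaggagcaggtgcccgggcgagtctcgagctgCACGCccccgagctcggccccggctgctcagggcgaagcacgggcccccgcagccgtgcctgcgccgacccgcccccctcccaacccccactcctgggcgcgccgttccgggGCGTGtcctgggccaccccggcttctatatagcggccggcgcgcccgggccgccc
IGFBP4: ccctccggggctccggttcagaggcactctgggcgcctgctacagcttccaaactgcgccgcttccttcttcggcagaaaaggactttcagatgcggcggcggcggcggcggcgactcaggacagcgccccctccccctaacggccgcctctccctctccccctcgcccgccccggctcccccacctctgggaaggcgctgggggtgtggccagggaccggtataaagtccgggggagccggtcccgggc

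The values are log2 CPM (a gene's reads relative to its library's total), which the authors normalized within each table, so levels are compared only within an experiment. Estimated library sizes were 15.2 to 23.8 M reads in the first experiment except for Scr1 replicate 3, at 3.35 M, and 15.2 to 29.5 M in the second except for Scr2 replicate 4, at 10.5 M. Scr2 replicates 1 and 4 stood apart from the other 7 libraries of the second experiment on the first principal component, which held 43.8% of the variance. MYC was lower in Myc1 than in Scr1 by a log2 difference of -0.83 (exact permutation p = 0.314). It was higher in the libraries labelled Myc2 than in those labelled Scr2 by 0.57 (exact permutation p = 0.0397, limma adjusted p = 0.37). The mean of the targeted gene thus went against the label in the second experiment. Its lowest value there, 25.9 CPM, was in Scr2 replicate 4. The 7 markers of the U87 line, among them the filament protein gene VIM and the surface receptor gene CD44, were abundant in every library, summing to 17800 to 20200 CPM in Myc1, 18800 to 21300 CPM in Scr1, 12700 to 16400 CPM in Myc2 and 16300 to 19800 CPM in Scr2. The sum was thus mostly lower in Myc2 than in Scr2. There LGALS1 differed by -0.82 (limma adjusted p = 0.37) with no overlap, as in 3.01% of all genes. S100A6 differed by -0.62 and ANXA2 by -0.32, while the other 4 had differences above 0. The part of the lower sum in the results of the second experiment was not tested. In tumour tissue, fewer cells of a type and less RNA per cell cannot be told apart, and the labels do not say how mouse reads were removed.

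Among the 8 genes, IGFBP6 had the highest level per length in all 4 groups. CPM per kilobase of exon was used for this order, with the exon lengths of GENCODE release 29. IGFBP6, which binds IGF2 with preference over IGF1, reached a mean log2 CPM per kilobase of 8.59 ± 0.44 (SD, n = 4) in Scr1 and 7.93 ± 0.48 (SD, n = 4) in Scr2. IGF2R, IGFBP3 and IGFBP4 followed in Scr1 at 3.11 ± 0.38, 2.97 ± 0.41 and 2.44 ± 0.80 (SD, n = 4), whose mean ± SD ranges overlapped between neighbours. IGFBP7, IGF1R and IGFBP2 were lower, at 0.10 ± 0.92, -0.36 ± 0.34 and -0.82 ± 0.50 (SD, n = 4), and IGFBP5 was lowest at -1.93 ± 0.71 (SD, n = 4). Ranges of mean ± SD also overlapped between neighbours in that lower set. In Scr2 the order was IGFBP6, IGFBP3 (4.30 ± 1.19), IGF2R (3.00 ± 0.82), IGFBP4 (2.36 ± 1.52), IGFBP2 (1.63 ± 1.97), IGFBP7 (0.75 ± 0.84), IGF1R (-0.29 ± 0.77) and IGFBP5 (-0.89 ± 1.11; SD, n = 4), again in log2 CPM per kilobase. Apart from the step below IGFBP6, the mean ± SD ranges of neighbours overlapped in Scr2.

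**Figure D1:**
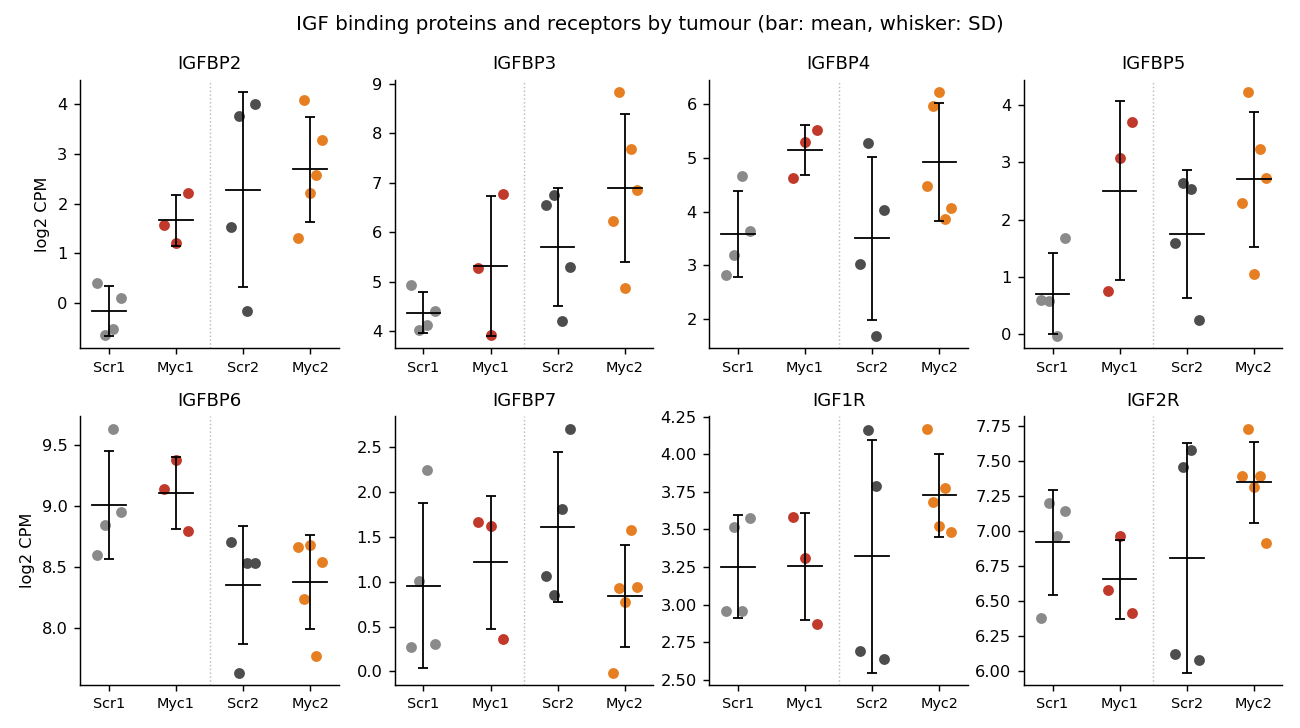
Log2 CPM of the 8 genes in each tumour (points), with the group mean (bar) and SD (whisker); the dotted line parts the experiments, which were normalized separately. IGFBP2 is higher in each of the 3 Myc1 tumours than in the 4 Scr1 tumours, and all other gene and experiment pairs overlap.

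In the first experiment, the binding proteins IGFBP2, IGFBP5 and IGFBP4 had the largest differences, all higher in Myc1, while IGFBP6, IGFBP7 and both receptors differed by less than 0.30 on the log2 scale. IGFBP2 stood at 2.95, 2.31 and 4.65 CPM in the Myc1 tumours and at 1.32, 0.637, 0.694 and 1.07 CPM in the Scr1 tumours. Every Myc1 tumour was above every Scr1 tumour, and IGFBP2 was the only one of the 8 genes whose groups did not overlap. Among all 13933 genes tested 4.21% had groups that did not overlap, and 1.94% had them with Myc1 higher. The log2 difference of IGFBP2 was 1.83 ± 0.48 (SE), from means of 1.66 ± 0.51 for Myc1 (SD, n = 3) and -0.17 ± 0.50 for Scr1 (SD, n = 4). These are low values: the Scr1 levels correspond to an estimated 13 to 23 reads, and to 2.3 reads in the shallow Scr1 replicate 3, without which the difference was 1.71.

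IGFBP4, the binding protein that PAPPA cuts in the presence of IGF, stood at 24.8, 39.5 and 45.6 CPM in Myc1 and at 7.03, 9.15, 25.3 and 12.5 CPM in Scr1. The groups overlapped by 1 tumour, since the shallow Scr1 replicate 3 was just above the lowest Myc1 tumour. The log2 difference was 1.57 ± 0.40 (SE), and 1.93 without that library. IGFBP5, the binding protein that attaches to extracellular matrix, stood at 1.68, 8.37 and 13.0 CPM in Myc1 and at 1.51, 1.51, 0.982 and 3.20 CPM in Scr1. In Myc1, 1 tumour lay among the controls, and the other two were above them. The log2 difference of IGFBP5 was 1.80 ± 0.64 (SE) with 1.20 without Myc1 replicate 3 and 2.67 without Myc1 replicate 1.

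IGFBP3, the main carrier of IGFs in blood, varied widely among the Myc1 tumours. It stood at 38.8, 15.2 and 108.6 CPM in Myc1 and at 30.7, 16.2, 17.4 and 21.1 CPM in Scr1. The groups overlapped, with 1 Myc1 tumour below and the other two above all controls. IGFBP3 differed by a log2 value of 0.95 ± 0.57 (SE), with 0.23 without Myc1 replicate 3 and 1.65 without Myc1 replicate 2. Myc1 replicate 3 held the highest level of IGFBP2, IGFBP3, IGFBP4 and IGFBP5 in its experiment.

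The remaining genes of the first experiment lay close together in the 2 groups. IGFBP6 ranged from 444.3 to 667.1 CPM in Myc1 and from 389.4 to 796.6 CPM in Scr1, a log2 difference of 0.10 ± 0.25 (SE). IGFBP7, a relative that binds IGFs weakly, ranged from 1.29 to 3.17 CPM in Myc1 and from 1.21 to 4.75 CPM in Scr1. Its log2 difference was 0.26 ± 0.55 (SE), and 0.69 without either the shallow Scr1 replicate 3 or Myc1 replicate 3. IGF1R stood at 11.96, 9.92 and 7.32 CPM in Myc1 and at 7.77, 11.4, 7.75 and 11.9 CPM in Scr1, a log2 difference of 0.00 ± 0.31 (SE). IGF2R stood at 95.9, 125.0 and 85.4 CPM in Myc1 and at 83.3, 147.3, 124.9 and 141.4 CPM in Scr1, and its log2 difference of -0.27 ± 0.24 (SE) was the only one below 0. Over the 8 genes the median log2 difference was 0.61, with 7 above 0, against a median of -0.003 and 49.5% above 0 over all genes tested. Without Myc1 replicate 2 or without Scr1 replicate 1, 5 lay above 0 and 3 below, since IGFBP6 and IGF1R changed sign. The rule that chose the genes used this comparison, so these counts describe the set.

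The summed level of endothelial markers was, like IGFBP2, higher in Myc1 in the first experiment, with most of the sum from 1 gene. Of 7 listed endothelial markers, 4 were in the table (VWF, KDR, TIE1 and EMCN), and PECAM1, CDH5 and CLDN5 had no row there. The 4 summed to 9.33 to 24.3 CPM in Myc1 and to 2.75 to 7.37 CPM in Scr1. The sum was highest in Myc1 replicate 3, which also had the most IGFBP2, IGFBP3, IGFBP4 and IGFBP5. That gene was EMCN, a sialomucin of vessel walls, which in log2 CPM averaged 3.36 ± 0.96 for Myc1 (SD, n = 3) and 1.37 ± 1.13 for Scr1 (SD, n = 4). Of the 2 markers that passed the filter, EMCN and KDR, only EMCN had groups that did not overlap, as did 4.21% of all genes. VWF, a defining endothelial gene, was below the filter and lower in Myc1, at -0.43 ± 0.39 against 0.04 ± 0.72 log2 CPM, TIE1 was below the filter with a difference of 0.03, and KDR differed by 1.20 ± 0.68 (SE). Astrocyte markers (5 of 7 in the table) summed to 324 to 402 CPM in Myc1 and to 143 to 401 CPM in Scr1, pericyte markers (6 of 6) to 256 to 356 and 264 to 432 CPM, and microglia and macrophage markers (3 of 7) to 332 to 403 and 247 to 347 CPM. Of the 4 astrocyte markers that passed the filter, the glutamate transporter genes SLC1A3 and SLC1A2 and the gap junction gene GJA1 had log2 differences of 1.09, 0.61 and 0.37, and GFAP, the defining astrocyte gene, one of -0.39 at means of 0.89 ± 0.45 log2 CPM for Myc1 and 1.27 ± 0.28 for Scr1. The host's own cells of these types are mouse cells, while the values are for human genes. Expression by U87 cells and mouse reads assigned to human genes cannot be told apart here, so the sums do not measure amounts of these cells. The part of these cells in the IGFBP differences was not tested.

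**Figure D2:**
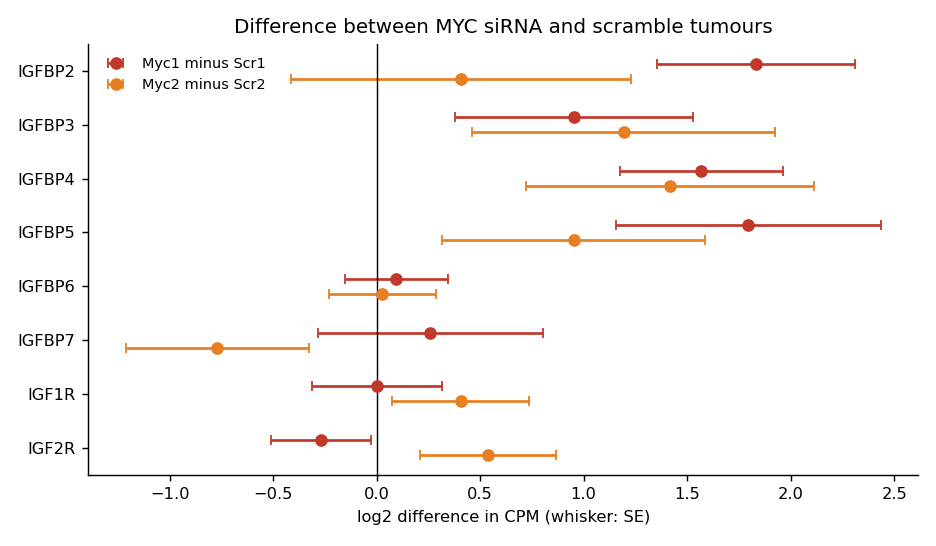
Log2 difference in CPM between MYC siRNA and scramble tumours for each gene (point) with its limma SE (whisker), in the first experiment (red) and the second (orange). IGFBP4 lies at 1.57 and 1.42, and IGFBP2 at 1.83 in the first experiment and 0.41 in the second.

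In the second experiment none of the 8 genes passed the test, although IGFBP4 and IGFBP3 had mean differences above 1 on the log2 scale. By limma, 0 of 8 had an adjusted p under 0.05 and 0 of 8 an unadjusted p under 0.05, and 0 of 8 by exact permutation. Over all 14208 genes tested, 0% passed the adjusted threshold and 13.4% had an unadjusted p under 0.05. No gene of the 8 had groups that did not overlap, against 3.01% of all genes. The median log2 difference of the 8 genes was 0.47, with 7 above 0, and the median of all genes was -0.02, with 48.2% above 0.

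IGFBP4 had the smallest p of the 8 genes. It stood at 22.2, 62.5, 74.9, 14.6 and 16.7 CPM in Myc2 and at 8.12, 38.5, 3.22 and 16.4 CPM in Scr2. The groups overlapped, with 2 Myc2 tumours above all controls and the 2 lowest values in Scr2 replicates 1 and 3. The log2 difference was 1.42 with a 95% interval of -0.11 to 2.94 (limma adjusted p = 0.372, unadjusted p = 0.0655, exact permutation p = 0.135). Leaving out Scr2 replicate 3 gave 0.81 and leaving out Scr2 replicate 2 gave 2.01, with adjusted p from 0.116 to 0.999 over the alternatives.

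IGFBP3 stood at 74.6, 458.2, 29.2, 206.3 and 115.2 CPM in Myc2 and at 93.7, 108.1, 18.4 and 39.1 CPM in Scr2. In Myc2, 3 tumours lay above all controls and the other two among them. The log2 difference was 1.19 with a 95% interval of -0.41 to 2.80 (limma adjusted p = 0.419, exact permutation p = 0.238), and 0.69 without Scr2 replicate 3. IGFBP5 stood at 4.85, 18.7, 2.08, 9.40 and 6.57 CPM in Myc2 and at 3.01, 6.20, 5.77 and 1.18 CPM in Scr2. Its log2 difference of 0.95 (95% interval -0.44 to 2.34, limma adjusted p = 0.446) was 0.12 without Scr2 replicates 1 and 4.

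IGFBP2, the gene with the largest difference in the first experiment, was spread over most of its range in both groups of the second. It stood at 2.47, 16.95, 4.63, 5.96 and 9.68 CPM in Myc2 and at 2.88, 13.5, 0.895 and 16.02 CPM in Scr2. The groups overlapped almost fully. IGFBP2 differed by 0.41 on the log2 scale, with a 95% interval of -1.39 to 2.21 (limma adjusted p = 0.801, exact permutation p = 0.706), and -0.41 without Scr2 replicate 3. That interval includes the 1.83 of the first experiment as well as 0.

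IGFBP6 ranged from 218.9 to 412.1 CPM in Myc2 with a median of 373.1, and from 199.1 to 418.4 CPM in Scr2. The log2 difference was 0.03 with a 95% interval of -0.54 to 0.60 (limma adjusted p = 0.965). It changed sign when 1 of several libraries was left out. IGFBP7 was the only one of the 8 with a mean below the controls, at 0.991, 1.91, 1.71, 2.98 and 1.92 CPM in Myc2 and at 2.10, 1.81, 3.50 and 6.54 CPM in Scr2. The highest value was in Scr2 replicate 4, and the groups overlapped. The log2 difference of IGFBP7 was -0.77 with a 95% interval of -1.74 to 0.20 (limma adjusted p = 0.399, exact permutation p = 0.143), it was -0.40 without Scr2 replicate 4, and each value rests on an estimated 19 to 70 reads. The endothelial markers in the second table (5 of 7) summed to 11 to 56.4 CPM in Myc2 and to 7.84 to 27.9 CPM in Scr2, and the lowest sum was in Scr2 replicate 4, the library with the most IGFBP7. The library with the highest endothelial sum, Myc2 replicate 2, also had the most IGFBP2, IGFBP3 and IGFBP5. IGFBP4 was highest in Myc2 replicate 3, and Scr2 replicate 4, with the lowest sum, held 16.02 CPM of IGFBP2. Marker log2 differences were 2.28 for CDH5 (limma adjusted p = 0.37), 2.09 for TIE1, 0.49 for KDR, 0.03 for VWF and -0.35 for EMCN. Astrocyte markers (5 of 7) summed to 204 to 841 CPM in Myc2 and to 169 to 488 CPM in Scr2. SLC1A3 had a log2 difference of 1.03 (limma adjusted p = 0.37, unadjusted p = 0.027) and GJA1 one of 0.595. GFAP, the defining astrocyte gene, differed by 0.002 and SLC1A2 by -0.013. As in the first experiment, these human values do not measure amounts of the host's mouse cells. The part of either cell type in these values was not tested.

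The 2 receptors were set by a pair of control libraries in the second experiment. IGF1R stood at 17.99, 12.8, 11.5, 13.7 and 11.2 CPM in Myc2 and at 6.46, 17.9, 13.8 and 6.23 CPM in Scr2. IGF2R stood at 168.2, 213.0, 159.1, 168.0 and 120.8 CPM in Myc2 and at 69.5, 176.4, 191.7 and 67.7 CPM in Scr2. For both genes Scr2 replicates 1 and 4 lay below all other libraries, and the other two controls lay within the Myc2 range of both. The log2 difference was 0.41 for IGF1R (95% interval -0.32 to 1.13, limma adjusted p = 0.522) and 0.54 for IGF2R (95% interval -0.18 to 1.26, limma adjusted p = 0.418). Without the 2 libraries it was -0.25 for IGF1R and -0.17 for IGF2R.

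**Figure D3:**
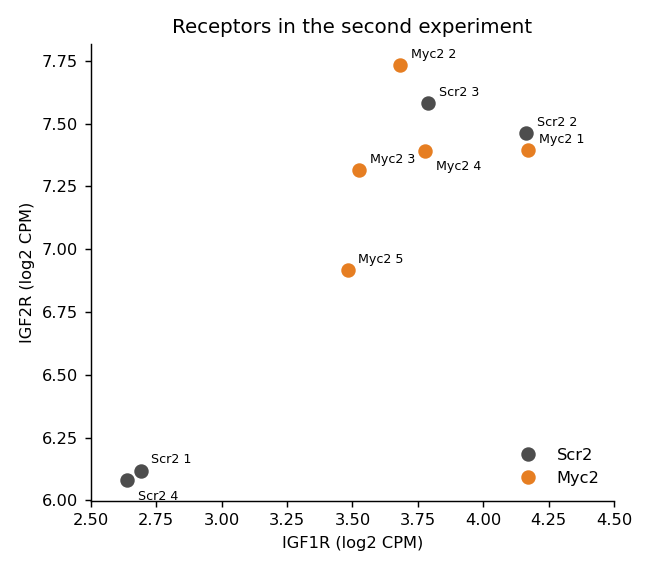
IGF1R against IGF2R, both in log2 CPM, in the 9 tumours of the second experiment, each point labelled by group and replicate. Scr2 replicates 1 and 4 sit apart at the lower left, and the other 7 tumours overlap between groups.

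IGF2R, the gene with 3 E-boxes in the promoter shown above, differed by -0.27 ± 0.24 (SE) in the first experiment. In the second it differed by 0.54 ± 0.33 (SE), and by -0.17 without Scr2 replicates 1 and 4. The MYC mean was lower in Myc1 than in Scr1 (exact permutation p = 0.314) and higher in Myc2 than in Scr2. A link between MYC and IGF2R was not tested. Both IGF2R differences lay within the overlap of the groups, and a match of letters does not show binding.

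IGFBP3, IGFBP4 and IGFBP5 varied more between mice of the same group than most genes of their level in both experiments. So did IGFBP6, IGFBP7 and IGF2R, with smaller gaps. In the second experiment the within-group SD was 1.52 log2 units for IGFBP2, 1.37 for IGFBP3, 1.30 for IGFBP4 and 1.14 for IGFBP5, where the 500 genes nearest in level had median SDs of 0.51, 0.32, 0.35 and 0.50. IGFBP6 (0.43), IGFBP7 (0.70), IGF1R (0.55) and IGF2R (0.58) were also above the medians of their level, at 0.31, 0.65, 0.38 and 0.30, with smaller gaps. In the first experiment IGFBP3 (0.95), IGFBP5 (1.13) and IGFBP4 (0.68) again exceeded the medians of 0.35, 0.54 and 0.36, but IGFBP2 did not, at 0.51 against 0.63. IGFBP6 (0.39), IGFBP7 (0.86) and IGF2R (0.34) exceeded medians of 0.28, 0.61 and 0.30 there, and IGF1R did not, at 0.35 against 0.41. No test was made of these spreads.

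**Figure D4:**
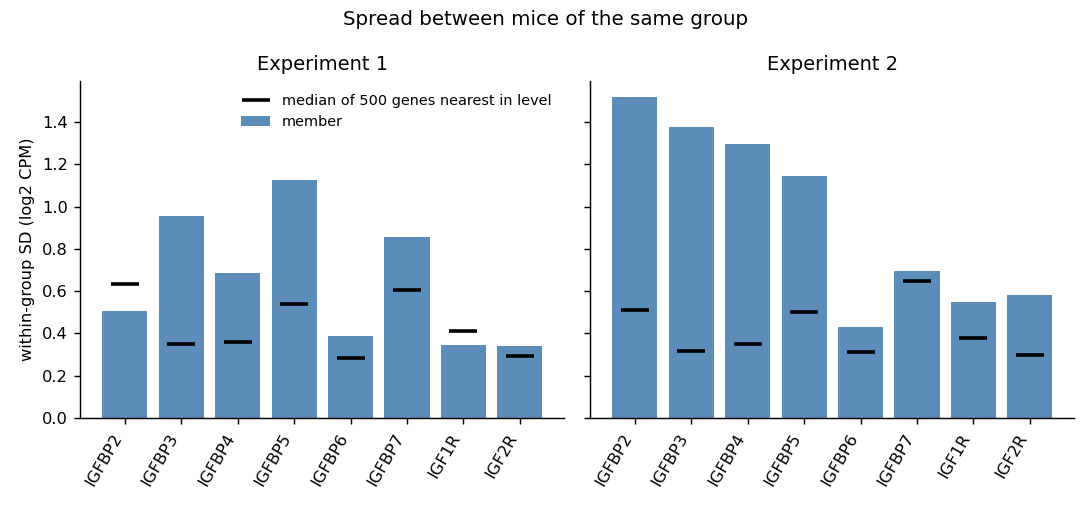
Within-group SD of log2 CPM for each gene (bars) and the median SD of the 500 genes nearest in mean level (black marks), in each experiment. In the second experiment the bars of IGFBP2, IGFBP3, IGFBP4 and IGFBP5 lie between 1.14 and 1.52 and the marks between 0.32 and 0.51.

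Across the 9 tumours of the second experiment, 28 pairs of the 8 genes were compared, and 0 correlations passed adjustment over the pairs. IGF1R and IGF2R had the largest coefficient, with Pearson's r = 0.90 (exact permutation p = 0.00572, adjusted p = 0.16) and Spearman's rho = 0.77 (exact permutation p = 0.0214, adjusted p = 0.2). It rests on Scr2 replicates 1 and 4: without them r was 0.37. IGFBP3 and IGFBP5 had r = 0.72 (exact permutation p = 0.0277, adjusted p = 0.28) and rho = 0.80 (exact permutation p = 0.0138, adjusted p = 0.2). For this pair r was 0.89 without the 2 tumours farthest from the median of IGFBP3 and 0.81 without Scr2 replicates 1 and 4. IGFBP5 and IGF2R had r = 0.72 (exact permutation p = 0.03, adjusted p = 0.28), and 0.41 without Scr2 replicates 1 and 4. IGFBP4 and IGFBP7 had rho = -0.77 (exact permutation p = 0.0214, adjusted p = 0.2) and r = -0.43 (exact permutation p = 0.248, adjusted p = 0.504). IGFBP2 and IGFBP4 had r = 0.65 (exact permutation p = 0.0562, adjusted p = 0.393) and rho = 0.47 (exact permutation p = 0.213, adjusted p = 0.585). Their r was 0.14 without the 2 tumours farthest from the median of IGFBP2 and 0.72 without Scr2 replicates 1 and 4. It was 0.66 over the 7 tumours of the first experiment, where no test was made. IGFBP2 and IGFBP5, which are next to each other on chromosome 2 among protein-coding genes of the RefSeq annotation, had r = 0.09 (exact permutation p = 0.818, adjusted p = 0.837) and rho = 0.30 (exact permutation p = 0.437, adjusted p = 0.764). For this pair r was -0.12 without the 2 tumours farthest from the median of IGFBP2, 0.44 without Scr2 replicates 1 and 4, and 0.74 over the 7 tumours of the first experiment, a description with no test. IGFBP3 likewise neighbours IGFBP1 on chromosome 7, and IGFBP1 stood near 1 CPM in both experiments.

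The genes with the most similar pattern were taken as those with the highest value of the smaller of the 2 Pearson coefficients, over 7 and 9 tumours, among 13655 other genes. They are the best of many and carry no test. For IGFBP2 they were SERPINF1, which encodes a secreted serpin known to restrain vessel growth (smaller coefficient 0.85), and TMEM54 (0.77). For IGFBP3 they were the gap junction gene GJB2 (0.92) and LRRC15 (0.84), and for IGFBP4 PMEPA1, a target and inhibitor of TGF-beta signalling (0.89), and WWC1 (0.84). IGFBP5 was closest to P4HB, the protein disulfide isomerase (0.85), and GGT7 (0.81), IGFBP6 to CXXC5 (0.84) and ASPHD1 (0.83), and IGFBP7 to CASP1 (0.76) and FAM118B (0.75). IGF1R was closest to the Hippo pathway transcription factor TEAD1 (0.92) and the Notch coactivator MAML2 (0.90), and IGF2R to the ubiquitin ligase HUWE1 (0.96) and CSPG4P8 (0.96). CSPG4P8 is a pseudogene that can share reads with its parent, so its value is uncertain.

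Other genes of the IGF pathway were taken from a list of 53, drawn up with earlier results known, of which 42 passed the filter on low values in the first experiment and 41 in the second. In the second experiment limma called 0 of 41 in either direction at an adjusted p under 0.05, and 4 had an unadjusted p under 0.05, all higher in Myc2, against 13.4% of all genes in either direction. Their median log2 difference was 0.28, with 34 of 41 above 0 against 48.2% of all genes, and -0.04 in the first experiment, with 19 of 42 above 0 against 49.5%. The ligand gene IGF2 was below the filter in the second experiment, with mean log2 CPM of -2.44 ± 1.55 for Myc2 (SD, n = 5) and -3.16 ± 0.15 for Scr2 (SD, n = 4). IGF1 and INS had no row in either experiment, and IGF2 had none in the first. INSR, the insulin receptor gene, differed by -0.36 ± 0.31 (SE) in the first experiment and by 0.27 ± 0.29 in the second (limma adjusted p = 0.628).

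Among the proteases that cut binding proteins, 7 were tested in the second experiment. All 7 lay above 0, against 48.2% of all genes, and 1 had an unadjusted limma p under 0.05, against 13.4% of all genes. That was PLAU, the urokinase gene, with mean log2 CPM of 9.34 ± 0.39 for Myc2 (SD, n = 5), 8.43 ± 0.49 for Scr2 (SD, n = 4) and a log2 difference of 0.92 ± 0.26 (SE; limma adjusted p = 0.37). PAPPA, the main IGFBP4 protease, differed by 0.65 ± 0.36 (limma adjusted p = 0.391) and by -0.03 ± 0.27 in the first experiment. In the second, MMP2 differed by 0.70 ± 0.34, CTSD by 0.38 ± 0.20, ADAM12 by 0.34 ± 0.31, HTRA1 by 0.28 ± 0.35 and ADAM9 by 0.17 ± 0.20. In the first, the proteases ran from -0.40 for ADAM9 to 0.29 for HTRA1. PAPPA2 was below the filter in the second experiment and differed by -0.07 ± 0.58 in the first.

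Stanniocalcins bind PAPPA and block it. STC2 had mean log2 CPM of 3.31 ± 1.60 for Myc2 (SD, n = 5) and -0.64 ± 1.64 for Scr2 (SD, n = 4). Its log2 difference was 3.95 ± 0.88 (SE, limma adjusted p = 0.37). The groups did not overlap, as in 3.01% of all genes and 1 of the 41 tested genes of the pathway list. STC2 differed by 2.45 ± 1.00 in the first experiment, where the Scr1 mean was -1.77 ± 2.21 log2 CPM (SD, n = 4). Both control means thus correspond to less than 1 CPM. STC1 differed by 0.62 ± 0.48 in the second and 0.45 ± 0.43 in the first.

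Downstream of IGF1R, 0 of 6 adaptors and 0 of 15 kinases and targets had an unadjusted limma p under 0.05 in the second experiment. The share over all genes was 13.4%. The adaptor IRS2 differed by 0.90 ± 0.44 (SE), IRS1 by 0.46 ± 0.36 and GRB14 by -0.74 ± 0.47, while AKT1 differed by 0.07 ± 0.15 and MTOR by 0.01 ± 0.21. In the first experiment IRS1 differed by -0.45 ± 0.33 and FOXO1, a transcription factor that AKT holds out of the nucleus, by 1.84 ± 0.71. FOXO1 differed by 0.06 ± 0.37 in the second (limma adjusted p = 0.939). IGF2BP2, which binds IGF2 mRNA, differed by 0.65 ± 0.28 in the second experiment (limma adjusted p = 0.37, unadjusted p = 0.0402) and by -0.25 ± 0.28 in the first. Of the distant relatives that carry an IGFBP domain, CYR61 differed by 0.78 ± 0.29 in the second experiment (limma adjusted p = 0.37, unadjusted p = 0.0193) and by -0.12 ± 0.54 in the first, and WISP2 by 1.01 ± 0.63 and 2.06 ± 0.64. The WISP2 control means, -0.10 ± 0.95 log2 CPM in Scr2 and -0.41 ± 0.55 in Scr1 (SD, n = 4), were under 1 CPM. Groups of the first experiment did not overlap for FOXO1, FOXO3, NOV and WISP2, higher in Myc1, and for PDPK1, lower. Over all genes the share was 4.21%.

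**Figure D5:**
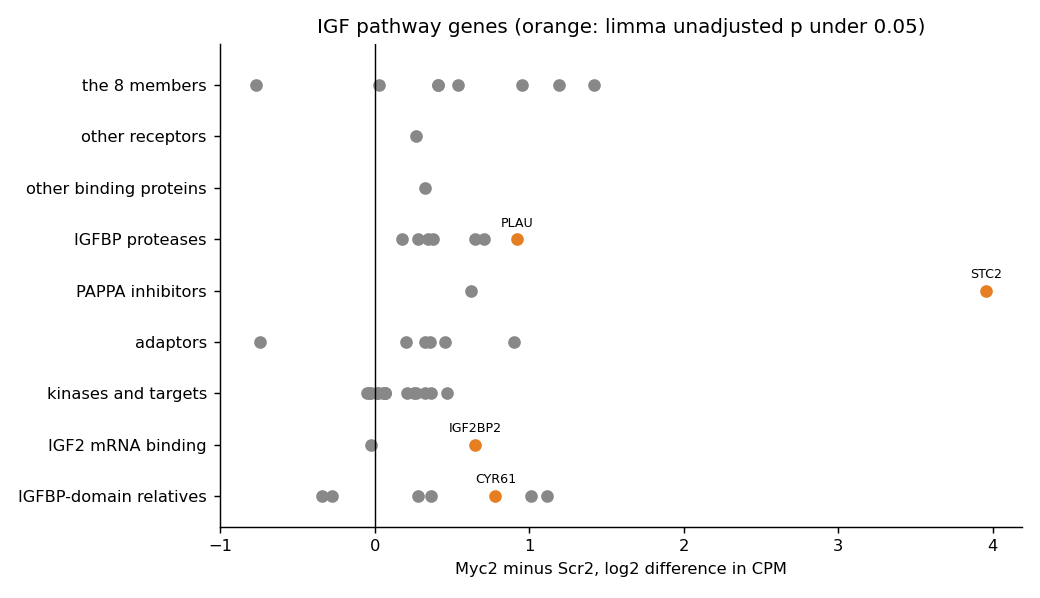
Log2 difference between Myc2 and Scr2 tumours for the 8 genes and the tested genes of each IGF pathway list (points), with unadjusted limma p under 0.05 in orange. The orange genes are PLAU (0.92), STC2 (3.95), IGF2BP2 (0.65) and CYR61 (0.78), and none of them passed after adjustment over all genes.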

How the data were processed

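Tumour RNA was sequenced on an Illumina NextSeq 500, per the labels' protocols. The submitters' processing notes name the builds hg19 and mm10 and the tools STAR 2.6.0b, bcl2fastq 2.20.0 and Picard, without roles. How reads were counted, on which annotation, and how mouse reads were set aside is not given in the sources used here. For each experiment the authors deposited a table of log2 values by gene. Their unit was read from the values. Back-transformed, they sum to 998367 to 998392 per sample in the first table and to 995054 to 995076 in the second, and at each of the top 5000 ranks the samples differ by at most 0.00828 and 0.0194 log2 units, so they are taken as log2 CPM, quantile-normalized within a table. Such values hide a shift of most genes. Library sizes were estimated from the steps of the lowest values, which follow log2(count + 0.5), and reads behind a value from that size. These estimates cover counting only.

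Groups came from the treatment labels. Titles name mice and no replicate numbers, so replicates were numbered in accession order. Each experiment was fitted alone with limma 3.58.1 in R 4.3.3 with trend and robust variance options, over genes with at least 1 CPM in 3 samples of the first experiment and 4 of the second. Benjamini-Hochberg adjustment ran over all genes tested, with a threshold of 0.05. With 5 against 4 tumours there are 126 arrangements for the exact two-sided permutation of the labels. The fit was tested on simulated data. The members and lists were chosen with earlier results of these data known. Alternatives were a pseudocount of 1 or 0.1, other filters, median centring, limma without trend and robust, a joint fit and leaving out libraries. The genes named are the 8 members, the IGF pathway lists and the 2 most similar genes of each member. Protein sequences were not used here. Each value is 1 mouse, so p-values weigh a group difference against the spread between mice.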

Additional observations from a re-analysis of the deposited data

Results flagged for a closer look

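In Scr2 the lowest IGFBP6 value, in replicate 2, lay far from the others: 7.64 log2 CPM, with the next lowest at 8.53. The gap was 0.836 of the group's range, against a limit of 0.829 for 4 samples. This was 1 of 24 sets of values checked, and chance flags about 1 in 20.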

How the results depend on the processing

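The counts of 0 members and 0 other IGF pathway genes called in the second experiment were the same under all 17 alternatives run for each. The median log2 difference of the 8 genes ran from 0.25 to 0.83 with 1 library left out in the second experiment, was 0.21 without both Scr2 replicates 1 and 4, and ran from 0.47 to 0.78 with 1 library left out in the first. Members at an unadjusted limma p under 0.05 in the second experiment numbered 0 to 4 with 1 library left out, 4 being without Scr2 replicate 2, and 1 in the joint fit. Over all genes, limma called 0 to 2 genes in the first experiment and 0 to 9 in the second with 1 library left out (9 without Myc2 replicate 3), and 2 in the second without both Scr2 replicates 1 and 4. In the second experiment the sign changed for IGFBP6 without Myc2 replicate 1 (-0.04), Myc2 replicate 3 (-0.05), Myc2 replicate 5 (-0.01) or Scr2 replicate 2 (-0.21; range -0.21 to 0.18), for IGFBP2 without Scr2 replicate 3 (-0.41; range -0.41 to 0.98), and for IGF1R (-0.25) and IGF2R (-0.17) without both Scr2 replicates 1 and 4. In the first experiment it changed for IGFBP6 without Myc1 replicate 2 (-0.04) or Scr1 replicate 1 (-0.04), and IGF1R ran from -0.16 to 0.19 with 1 library left out; the cause was not tested. In the first experiment the IGFBP2 difference was 1.14 on the log2(CPM + 1) scale, which compresses low values. Summing rows of a symbol gave no alternative, since each member had 1 row. No paired analysis was possible because the labels carry no replicate numbers. Depth limits IGFBP2, IGFBP5 and IGFBP7 most, with as few as 2.3, 3.3 and 16 estimated reads in Scr1 replicate 3.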
